A study of Mus musculus with 19 samples.

Results

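Glial progenitor cells (GPC) were described from their own RNA libraries, gene by gene and in order of abundance. The 4 libraries labelled as GPC RNA-seq were taken, of 19 samples in the series, and their RPKM values and read counts were read for 22958 gene lines. The series also holds RNA libraries of glia and chromatin immunoprecipitation (ChIP-seq) samples of GPC, from which lists of SOX3 and SOX9 binding were used here. No group was compared with the GPC, so no test was made, and the error given is the standard deviation (SD) over the 4 libraries. The GPC were mouse cells made from embryonic stem cells grown without feeders. They were differentiated in N2B27 medium on fibronectin with 0.1 µM all-trans retinoic acid, sorted at day 8 with magnetic beads for the surface antigen A2B5, and grown in EGF and FGF2 at 10 ng/ml each. RNA was extracted with a Qiagen kit and a TruSeq RNA kit was used for the libraries. Nothing in the labels says whether the 4 libraries came from separate cultures, so the spread may be technical.

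Glial progenitors are the dividing cells of the developing neural tube that give rise to astrocytes and oligodendrocytes. They keep the SOXB1 factors of neural stem cells, such as Sox2 and Sox3, and begin to carry factors of the glial lineages, among them the OLIG proteins, Sox9 and Nfia. Where along the body axis a progenitor lies is recorded in its Hox genes, and its dorsal or ventral place in the tube in a second code of homeodomain and bHLH factors. The retinoic acid used here is a caudalising signal, and A2B5 recognises gangliosides on the surface of glial precursors.

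RPKM is the number of reads on a gene scaled to its model's length and to the size of the library, and it allows levels of different genes to be set side by side. Replicates 1, 2 and 4 held between 12836998 and 13037426 reads in genes, and replicate 3 held 22439837. Replicates 1, 2 and 4 resembled each other, with a median fold between libraries of 1.05 to 1.07, and replicate 3 lay a median of 1.13 to 1.14-fold from each of them. Replicate 3 therefore stood apart. Where leaving it out moved a mean given with its SD by over 10%, the mean without it is added. A gene of 2 kb with 0 reads could still have a level of up to 0.116 RPKM in replicates 1, 2 and 4 and 0.0666 RPKM in replicate 3, the limits that 3 reads set for counting error only. These are bulk libraries, in which fewer cells of a type and less RNA per cell cannot be told apart.

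A gene was called expressed when it reached 1 RPKM in each of the 4 libraries, and silent when it stayed under 0.1 RPKM in each. By this rule 11639 genes were expressed, 50.7% of the table, and 7744 were silent, 33.7%. The 2 classes left 3575 genes between them. No read was found in any library for 5726 genes. The median gene of the whole table had a mean of 1.52 RPKM, and the median expressed gene 16.0 RPKM. Messages were unevenly divided. A group of 27 genes at 1000 RPKM or more held 11.1% of the summed RPKM, 812 genes at 100 to 1000 RPKM held 37.5%, and 6711 genes at 10 to 100 RPKM held 46.5%. The 4472 genes at 1 to 10 RPKM held 4.63%. Counted from the top, 904 genes made up 50% of the summed RPKM, and the 100 most abundant genes 20.8%.

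The most abundant message was Ckb, brain creatine kinase, which buffers cellular ATP. Its level was 6684, 6028, 5583 and 5990 RPKM in replicates 1 to 4, the order used throughout. It was followed by Fabp7, the brain fatty acid binding protein of radial glia, with 5678, 5799, 5259 and 5380 RPKM. The ranges of these 2 genes overlapped, although Ckb was the higher in each library. Both were clear of the third, the translation elongation factor Eef1a1, at 3961, 4045, 4047 and 4095 RPKM. Their regulatory starts are shown because these 2 genes lead the transcriptome. Each line is the 250 bases before the start of transcription in RefSeq on the mouse build GRCm38.p6, with the motif CCAAT, or ATTGG where it lies on the other strand, and the TATA motif TATAAA in capitals.
Ckb: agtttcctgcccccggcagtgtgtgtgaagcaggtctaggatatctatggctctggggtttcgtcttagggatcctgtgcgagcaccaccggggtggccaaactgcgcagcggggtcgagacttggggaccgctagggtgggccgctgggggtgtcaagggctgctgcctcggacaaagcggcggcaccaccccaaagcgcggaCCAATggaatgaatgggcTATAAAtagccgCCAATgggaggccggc
Fabp7: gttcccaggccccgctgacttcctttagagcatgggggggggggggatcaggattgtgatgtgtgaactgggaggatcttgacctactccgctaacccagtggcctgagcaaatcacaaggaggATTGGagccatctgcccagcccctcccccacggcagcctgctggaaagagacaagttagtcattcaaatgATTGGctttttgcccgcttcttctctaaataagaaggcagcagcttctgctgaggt
The Ckb stretch lies at chr12:111672339-111672588 on the minus strand and the Fabp7 stretch at chr10:57784673-57784922 on the plus strand. In Ckb, TATAAA begins 28 bases before the start, with CCAAT on both sides of it, 46 and 16 bases before the start. Fabp7 has no TATAAA in this window and has ATTGG 126 and 56 bases before the start. On either strand, 11.3% of 18374 RefSeq windows of this length hold TATAAA and 35.3% hold CCAAT. The Ckb window holds 16 CpG and the Fabp7 window 4, where the median window holds 10. A match is a description of the letters and not evidence of a site in use.

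Below Eef1a1, the 20 most abundant genes were mostly made of the machinery of translation and the cytoskeleton. The ribosomal proteins Rplp1 and Rps15 followed at 3454 ± 296 and 1993 ± 157 RPKM (mean ± SD, n = 4, as for the means below), and Rpl8 and Rpl4 lay at 1634 and 1428 RPKM. Eef2, which moves the ribosome along the message, and Gnb2l1, the ribosomal scaffold also called Rack1, reached 1390.2 ± 52.1 and 1359 ± 65.4 RPKM. The cytoskeleton was represented by Tuba1a, an alpha tubulin of young neural cells, with 1826, 1760.1, 1880.4 and 1782 RPKM, by the actin regulators Cfl1 and Tmsb4x at 1547 ± 37.5 and 1492 ± 192 RPKM, and by the intermediate filament vimentin, Vim, with 1297, 1247, 1319 and 1169.9 RPKM. Of the remaining members, Mest, an imprinted gene of growing tissue, had 1979.8, 1992, 1437 and 1946 RPKM, with replicate 3 below the range of the other libraries. Scd2, a fatty acid desaturase of brain, went the other way with 1366, 1371, 1792 and 1385 RPKM. Serpine2, a secreted protease inhibitor, was even across the libraries, with 1455, 1517, 1569.5 and 1483 RPKM. The chaperone Hsp90ab1, the ATP synthase subunit Atp5b and the acyl-CoA binding protein Dbi completed the group at 1692 ± 93.6, 1265 ± 182 and 1260.3 ± 23.3 RPKM. The order within it is loose: of 19 pairs of neighbours, 16 had overlapping ranges over the libraries. The exceptions were the steps from Fabp7 to Eef1a1, from Eef1a1 to Rplp1 and from Rplp1 to Rps15.

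**Figure D1:**
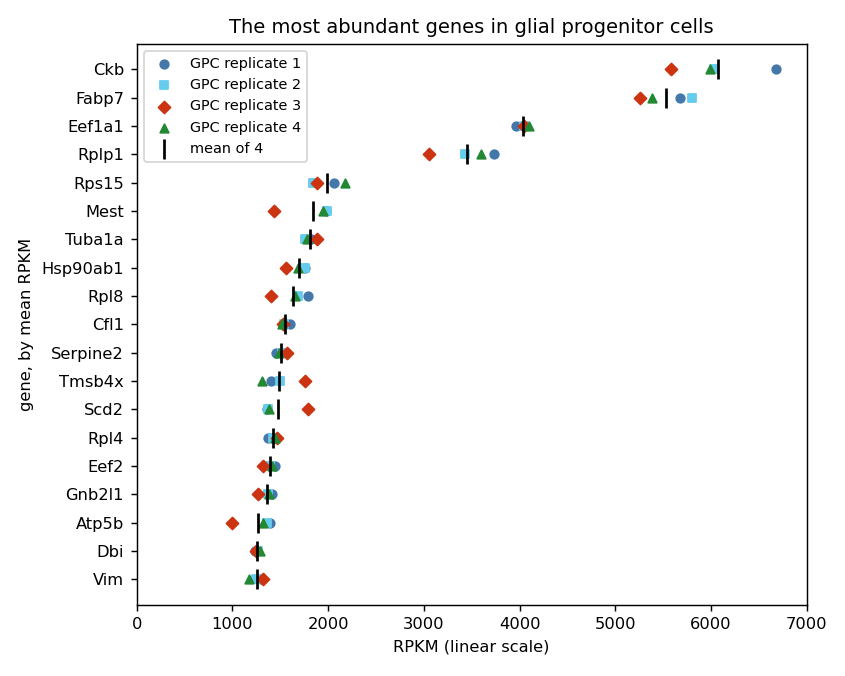
RPKM of 19 of the 20 genes with the highest mean in GPC, on a linear axis, with 1 point per library and a bar at the mean of 4. Ckb and Fabp7 stand above all other genes in every library, and from Rps15 down the points of neighbouring genes overlap.

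The choice of unit matters to this order. RPKM divides by model length, and for near-identical gene families the length implied by the deposited counts and RPKM was very short, for example 171 bases for Rplp1, 128 for Rpl41 and 43 for Eno1. The level of such a gene is uncertain, and so is a low one: Gapdh, a glycolytic enzyme with many processed copies, showed only 7.27, 8.37, 9.12 and 9.68 RPKM, from 21, 24, 45 and 28 reads over an implied 221 bases. By share of reads in genes the order was Scd2 (0.770%), Ckb (0.648%), Mest (0.461%), Fabp7 (0.423%), Hsp90ab1 (0.393%), Eef2 (0.391%), Eef1a1 (0.311%), Serpine2 (0.303%), the beta tubulin Tubb5 (0.263%) and the bHLH factor Olig1 (0.242%). The 20 leading genes by RPKM and by reads shared 12 members. Ribosomal protein genes gave 21 of the 100 most abundant genes and 5.85 ± 0.345% of the summed RPKM, but 1.23% of the reads, and 2.97% of the RPKM once gene models under 300 bases were left out. Nuclear genes of the respiratory chain gave 8 of the 100 and 3.402 ± 0.347% of the RPKM.

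The label of the cells was checked against Fabp7, Nes, Olig1, Sox2 and Sox3, and all 5 were expressed in each library. Together they held 1.53 ± 0.0491% of the summed RPKM. Nes, the intermediate filament nestin of neural stem cells, had 137, 135, 124.1 and 131 RPKM. Sox2, which maintains neural stem cells, had 141, 144, 163 and 153 RPKM. Olig1 was the most abundant transcription factor of all, and its 1166, 1111, 1049 and 1116 RPKM placed it at rank 24 among all genes. Only Sox3 was uneven, with 72.3, 68.8, 122 and 66.6 RPKM. Its value in replicate 3 was 1.76 times the mean of the other libraries.

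Other neural progenitor genes were expressed at a broad range of levels. Of 19 genes on this list, 16 were expressed and 0 were silent, against 50.7% and 33.7% of all genes, and the list's median was 42.7 RPKM. The glutamate transporter Slc1a3 of radial glia had 300.3 ± 6.87 RPKM, the receptor phosphatase Ptprz1 167 ± 14.6, the matrix protein Tnc 161 ± 39.7 (179.99 without replicate 3) and the radial glial factor Rfx4 143, 143, 132 and 145 RPKM. Of the Notch pathway, the receptor Notch1 had 42.7 ± 4.94 RPKM. Its effectors Hes5 and Hes1 had 42.2 ± 12.8 (35.9 without replicate 3) and 30.4 ± 2.07 RPKM. Activity of the pathway was not tested. The RNA-binding proteins Msi2 and Msi1, which mark neural stem cells, lay at 47.7 ± 6.46 and 36.7 ± 6.08 RPKM. Sox21 and Sox1, SOXB relatives of Sox2, differed more than 4-fold, at 45.2 ± 4.18 and 10.1 ± 1.18 RPKM. The lowest members were Lix1, Dach1 and Fut4, each under 1 RPKM on average.

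Among 608 transcription factors recognised by symbol, 331 were expressed, or 54.4% against 50.7% of all genes, and 135 were silent. The median expressed factor had 13.5 RPKM, slightly less than the median expressed gene, and 195 factors had a mean of 10 RPKM or more. Only 17 passed 100 RPKM. The OLIG family was in a class of its own, with 16.5% of the summed RPKM of all 608 factors. Olig2, which directs motor neuron and oligodendrocyte fates, had 546, 545, 491 and 553 RPKM. Id3, an inhibitor of bHLH factors, followed with 424, 374, 296 and 366 RPKM, and then the nucleic acid binding protein Ybx1 with 297 ± 13.98. Etv5, a target of FGF signalling, had 190, 201, 140 and 181 RPKM. The SOX family gave 4 of the 20 leading factors: Sox4 with 146, 136, 213 and 156 RPKM, Sox2, the SOXE member Sox8 with 113, 113, 136 and 112 RPKM, and Sox3. Sox9, which is needed for the onset of gliogenesis, had 53.5, 53.9, 62.7 and 52.5 RPKM, and Nfia, which acts after it, 10.4, 11.1, 15.8 and 11.2. The growth factor response gene Egr1 had 91.3, 94.6, 160.3 and 97.8 RPKM, and like Sox4 it was highest in replicate 3. Atf4, Tcf25, Tcf12, Tfdp1, Tead2, Thra and Tcf3 filled the rest of the first 20 with means of 83.8 to 140 RPKM, beside Rfx4 and the Hox genes Hoxb8 and Hoxb6.

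Whole families differed in how many of their members were on. All 4 measured NFI genes, all 4 ID genes, all 3 MEIS and 4 PBX genes, which are cofactors of Hox proteins, and all 8 E2F genes of the cell cycle were expressed. So were 32 of 36 ZBTB and 13 of 19 SOX genes, where 54.4% of all 608 factors and 50.7% of all genes were. At the other end, 0 of 5 ZIC, 0 of 6 DLX, 0 of 6 GATA, 0 of 3 neurogenin and 0 of 4 NEUROD genes were expressed. Zic2 missed the call only in replicate 2, with 1.33, 0.876, 1.64 and 1.21 RPKM. The PAX and LHX families each had a single expressed member, Pax6 of 9 PAX genes and Lhx2 of 8 LHX genes, while 6 and 7 of their members were silent.

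The OLIG family shows this contrast within one family. Olig1 and Olig2 lie side by side on chromosome 16 and were both among the leading factors, whereas Olig3, a factor of dorsal progenitors, had 0 reads in all 4 libraries. The 250 bases before the starts of Olig2 and Olig3 are shown for this pair, with the same capitals and build as above.
Olig2: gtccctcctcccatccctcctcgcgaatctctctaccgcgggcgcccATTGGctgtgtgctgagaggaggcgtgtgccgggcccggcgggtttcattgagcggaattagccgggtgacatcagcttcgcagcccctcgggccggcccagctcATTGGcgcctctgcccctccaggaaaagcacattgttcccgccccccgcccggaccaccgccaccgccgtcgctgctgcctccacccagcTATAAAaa
Olig3: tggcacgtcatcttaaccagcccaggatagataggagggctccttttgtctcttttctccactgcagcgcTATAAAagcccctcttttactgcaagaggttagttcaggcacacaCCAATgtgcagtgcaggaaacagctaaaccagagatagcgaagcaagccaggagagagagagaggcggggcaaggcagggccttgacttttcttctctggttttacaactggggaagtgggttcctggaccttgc
The Olig2 stretch is chr16:91225300-91225549 and the Olig3 stretch chr10:19356289-19356538, both on the plus strand. The windows hold 22 and 4 CpG. TATAAA begins 8 bases before the start given for Olig2 and 180 bases before that of Olig3.

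The Hox genes gave the regional signature of the cells. Of 39 Hox genes measured, 21 were expressed and 10 were silent, or 53.8% and 25.6%, near the 50.7% and 33.7% of all genes. The division followed the order of the genes along the clusters: 20 of 23 genes of paralogous groups 1 to 8 were expressed, 1 of 4 of group 9, and 0 of 12 of groups 10 to 13, of which 9 were silent. Low paralogous groups are used in the hindbrain and neck and high ones towards the tail. The HoxB cluster was the strongest, with 8 of 10 genes expressed and a summed mean of 415 RPKM, followed by HoxA with 7 of 11 genes and 132 RPKM. HoxC and HoxD had 3 of 9 expressed genes each, with 21.1 and 14.7 RPKM. The leading genes were Hoxb8, with 118, 113, 91.0 and 115 RPKM, Hoxb6, with 118, 117, 76.7 and 122, and Hoxa5, with 59.6, 57.6, 57.8 and 56.4. The most posterior expressed gene was Hoxa7 in HoxA (15.04, 16.0, 12.1 and 15.7 RPKM), Hoxb9 in HoxB (53.3, 52.7, 17.9 and 56.7), Hoxc8 in HoxC (1.22, 1.27, 1.12 and 1.12) and Hoxd8 in HoxD (5.42, 6.28, 6.53 and 6.69). The fall beyond these differed between clusters. Hoxa9 averaged 0.238 ± 0.119 (0.181 without replicate 3) RPKM next to 14.7 ± 1.78 for Hoxa7. Hoxc9 had 0.286 ± 0.137 RPKM, next to a Hoxc8 that itself lay only just above the call. Hoxd9 missed the call narrowly, with 0.813, 1.13, 0.952 and 0.991 RPKM. Of the anterior-most group, Hoxb1 was silent and Hoxd1 stayed at or below 0.238 RPKM. Replicate 3 had the lowest value for 15 of the 21 expressed Hox genes, where it was the lowest library for 41.1% of all expressed genes. Hoxb9 in replicate 3 was at 0.330 of the mean of the other libraries, and Hoxa5 at 0.999.

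**Figure D2:**
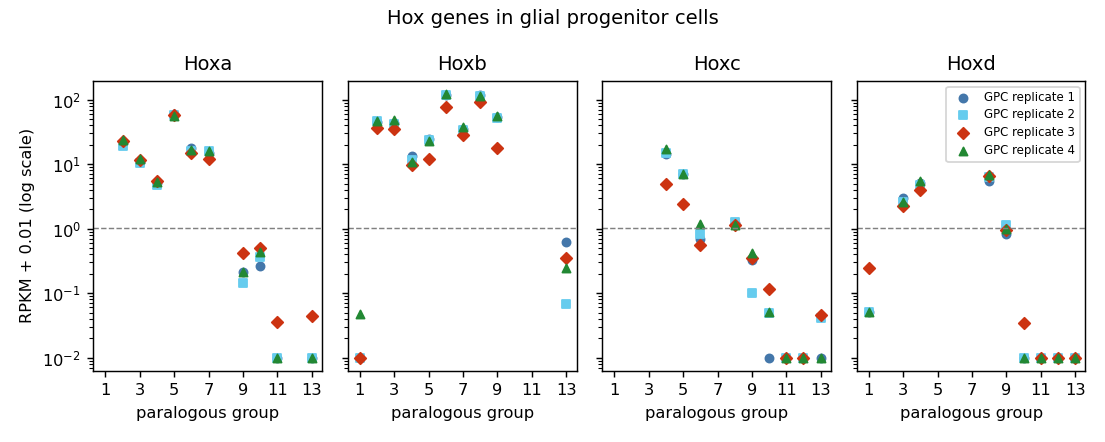
RPKM + 0.01 on a log axis for 38 of the 39 Hox genes, by cluster and paralogous group, with 1 point per library and a broken line at 1 RPKM. Apart from Hoxb1, Hoxd1 and Hoxc6, points lie above the line up to groups 7 to 9 and below or at it beyond, and replicate 3 is low for Hoxb9, Hoxc4 and Hoxc5.

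Factors of the hindbrain and spinal cord were expressed alongside the Hox genes, and most factors of forebrain and midbrain were not, although Lhx2 reached the level of the caudal factor Gbx2. On the caudal list 12 of 16 genes were expressed, where 50.7% of all genes were. The list's Hox cofactors Pbx3, Meis1 and Meis2 had 29.9 ± 1.70, 26.5 ± 0.852 and 26.2 ± 3.55 RPKM. The Iroquois factor Irx3 had 20.7, 19.3, 29.2 and 20.7 RPKM, and Gbx2, which sets the anterior limit of the hindbrain, 12.7, 10.6, 10.7 and 12.2 RPKM. Cdx1, Cdx4 and Nkx1-2, factors of the tail end of the embryo, were silent. Beside 33.7% of all genes silent and 50.7% expressed, 15 of 26 forebrain and midbrain factors were silent and 4 were expressed. They were Lhx2 with 10.8, 9.56, 15.5 and 10.99 RPKM, the midbrain-hindbrain factors En2 and En1 at 4.31 ± 0.587 and 2.84 ± 0.367 RPKM, and Emx2 at 2.60 ± 0.0260 RPKM. Otx2, which specifies forebrain and midbrain, was silent, as were Dlx2, Dlx5, Dlx6, Nkx2-1, Emx1, Fezf1, Fezf2, Pax2, Pax5 and Six6.

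Along the dorsoventral axis 12 of 28 factors were expressed and 12 were silent, 42.9% each. Over all genes 50.7% were expressed and 33.7% silent, so the count itself does not set these factors apart. Ventral and intermediate factors made up most of the expressed group. Nkx2-2, of the most ventral progenitors, had 19.3, 19.5, 18.4 and 21.9 RPKM, Nkx6-1 17.0, 13.8, 15.6 and 15.5, and its relative Nkx6-2 13.5, 13.9, 15.9 and 15.4. Pax6, which represses Nkx2-2 in the spinal cord, was found at a similar level, with 17.97, 17.6, 22.4 and 19.4 RPKM. Dbx2, of intermediate progenitors, had 38.2, 41.1, 29.9 and 41.7 RPKM, and the more dorsal factor Gsx1 7.36, 6.17, 3.93 and 6.57 RPKM. Bulk libraries do not show whether such factors were in the same cells. Silent members were mostly dorsal: Pax3, Pax7, Msx2, Msx3, Lbx1, Gsx2, Wnt1, Wnt3a, Lmx1a and Olig3, beside Dbx1 and Prdm12. Msx1, a relative of Msx2 and Msx3, was expressed at a low level, with 1.27, 1.64, 1.15 and 1.55 RPKM. The floor plate signal Shh was at 0.365 ± 0.130 (0.307 without replicate 3) RPKM and the floor plate factor Foxa2 at 1.41 ± 0.0627.

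Genes of both glial lineages were found. Of 20 genes of oligodendrocyte precursors, 19 were expressed, where 50.7% of all genes were, with a median of 21.8 RPKM. Behind Olig2 came the brevican gene Bcan at 257 ± 70.1 (222 without replicate 3) RPKM, the sulfatase Sulf2 at 144 ± 22.1, and Sox8. The PDGF receptor Pdgfra, a surface marker of these precursors, had 22.5, 22.1, 16.2 and 21.9 RPKM. The SOXE factor Sox10, required for oligodendrocytes, was lower with 6.45, 6.65, 6.44 and 7.06 RPKM, and Cspg4, the proteoglycan NG2, had 5.98 ± 1.65 (6.79 without replicate 3). Neu4, a sialidase, was the exception at 0.0857 ± 0.0423 (0.0682 without replicate 3). Among 20 genes of maturing oligodendrocytes 10 were expressed, the median was 1.39 RPKM, and 2 were silent, Ermn and Klk6. These values are near the 50.7% and the 1.52 RPKM of all genes. Cnp, an early enzyme of the lineage, had 86.1, 88.1, 92.7 and 89.5 RPKM. The myelin genes proper were far lower: Mbp had 6.66, 6.03, 15.9 and 6.94 RPKM, and Mag and Mog 0.522 ± 0.404 (0.323 without replicate 3) and 0.133 ± 0.129 (0.0904 without replicate 3).

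Astrocyte genes were represented almost in full, with 23 of 25 expressed, where 50.7% of all genes were, and a median of 30.6 RPKM. Aldoc, a glycolytic aldolase of astrocytes, had 358, 347, 684 and 367 RPKM. Glul, glutamine synthetase, had 384, 399.5, 311 and 396 RPKM, higher than Aldoc in replicates 1, 2 and 4 and lower in replicate 3. Without replicate 3 Glul averaged 393 and Aldoc 358 RPKM. The lipid enzyme Acsbg1 had 222 ± 49.7 (246 without replicate 3). The filament gene Gfap, a marker of mature and reactive astrocytes, stood much lower with 5.64, 5.92, 15.4 and 6.52 RPKM, and the water channel Aqp4 at 2.17 ± 0.498 (1.96 without replicate 3). The connexin Gjb6 was silent. Apoe, the lipid carrier of astrocytes, had 29.4, 28.9, 104 and 29.9 RPKM, and Aldh1l1, a folate enzyme used as an astrocyte marker, 29.5, 30.0, 17.0 and 30.4. Replicate 3 lay above the range of the other libraries for Aldoc, Gfap, Aqp4 and Apoe and below it for Glul, Acsbg1 and Aldh1l1.

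On the neuron list 10 of 24 genes were expressed and 8 were silent, or 41.7% and 33.3%, near the 50.7% and 33.7% of all genes. The list's median was 0.694 RPKM against 1.52 for all genes. The expressed ones included the structural genes Map2 at 149.8 ± 8.64 RPKM, Gap43 with 113, 108, 96.5 and 108, and Tubb3 with 16.4, 14.4, 19.2 and 15.3. Which cells these messages came from was not tested. The silent members were the transmitter genes Gad1, Gad2, Slc17a6, Slc17a7, Th and Chat, the motor neuron factor Isl1 and the neurofilament Nefh. Mnx1, another motor neuron factor, reached at most 0.152 RPKM. Of 16 neurogenic factors, 3 were expressed, among them Myt1 at 7.13 ± 0.215 and Insm1 at 3.05 ± 1.10 (2.52 without replicate 3) RPKM, and 7 were silent: Neurog1, Neurog3, Neurod2, Neurod6, Tbr1, Atoh1 and Ptf1a.

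Genes of the remaining cell types were mostly silent or low. The pluripotency list had 12 silent genes of 17, where 33.7% of all genes were silent and 50.7% expressed. Pou5f1 and Zfp42 were among the silent ones, with 0 reads in every library. The list's 3 expressed members, Klf4, Esrrb and Tbx3, lay at 1.45 to 1.76 RPKM. Endoderm and epithelium had 1 expressed gene of 14, Foxa2, and endothelium 0 of 10. Microglia had 2 of 13, Cd68 at 3.42 ± 0.418 and Tmem119 at 1.74 ± 0.357 RPKM, with Cx3cr1, C1qa, C1qb, C1qc, Spi1 and Tyrobp at 0 reads. Of the mesenchyme list 10 of 17 genes were expressed, 58.8% against 50.7% of all genes, with a median of 3.24 RPKM. The collagens Col3a1 and Col1a1 led it, Col3a1 with 54.2 ± 3.02 RPKM and Col1a1 with 60.6, 52.5, 39.1 and 53.0. The muscle factor Myod1 and the mesoderm factor Mesp1 were silent. On the neural crest list Pmp22 reached 30.9 ± 3.94 RPKM, while Pax3 and Foxd3 were silent. The ciliogenesis factor Foxj1 had 16.0, 14.5, 10.0 and 15.1 RPKM. Of the 9 ependymal genes 2 were expressed and 4 were silent, where 50.7% and 33.7% of all genes were. The summed level of each of these lists was between 0.000647% and 0.0363% of all RPKM, against 0.536% for the neural progenitor list. That list includes Vim, its highest member, at a mean of 1258 RPKM. The astrocyte list held 0.422%, the oligodendrocyte precursor list 0.302%, the neuron list 0.0669% and the maturing oligodendrocyte list 0.0373%. The highest value of the lists described here, 0.0363% for mesenchyme, was thus near that of maturing oligodendrocytes. Their part in the other results was not tested.

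**Figure D3:**
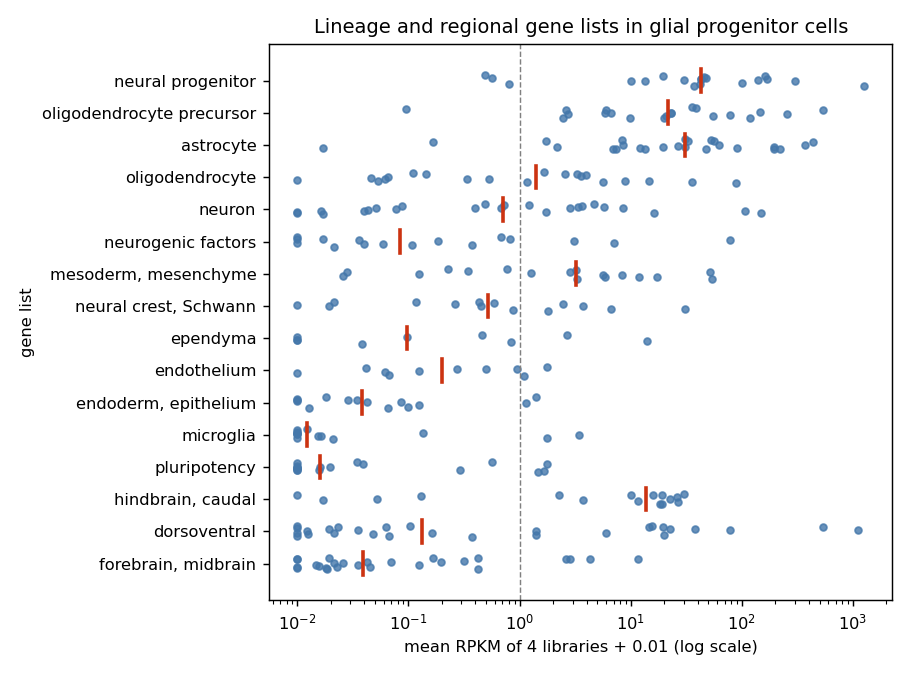
Mean RPKM + 0.01 of each gene of 16 lists, on a log axis, with a bar at each list's median and a broken line at 1 RPKM. Neural progenitor, oligodendrocyte precursor and astrocyte genes lie mainly right of the line, and pluripotency, microglia, endoderm and forebrain genes mainly left of it.

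The receptors for the factors in the medium were expressed. Of 22 growth factor receptors and related genes 19 were expressed and 0 were silent, against 50.7% and 33.7% of all genes. Among FGF receptors, Fgfr3 led with 85.5, 77.3, 119 and 80.6 RPKM, before Fgfr1 at 65.6 ± 3.08 and Fgfr2 at 8.62 ± 0.785, and Fgfr4 was at 0.160 ± 0.0961 (0.143 without replicate 3). The decoy-like receptor Fgfrl1 had 95.6 ± 7.97 RPKM. The EGF receptor Egfr had 20.4, 19.5, 24.2 and 19.2 RPKM, and of its relatives Erbb2 was at 14.8 ± 2.07, Erbb4 at 5.45 ± 2.02 (4.45 without replicate 3) and Erbb3 at 0.424 ± 0.189 (0.496 without replicate 3). The hedgehog signal transducer Smo and its inhibitor Ptch1, itself a target of the pathway, had 67.0 ± 5.05 and 35.8 ± 4.55 RPKM, while Shh was below 1 RPKM.

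Of 17 retinoid genes 11 were expressed, 64.7% against 50.7% of all genes, and those described here are only some of them. Among the receptors, Rara had 17.0 ± 9.87 RPKM and Rarb 14.5 ± 2.23, an order that turned without replicate 3, at 12.1 and 15.6 RPKM. Rarg had 5.27 ± 0.502 RPKM, and the partners Rxrb and Rxra 22.7 ± 2.10 and 12.9 ± 1.16. The enzymes that clear retinoic acid were low, with Cyp26a1 and Cyp26b1 at 0.569 and 0.255 RPKM and Cyp26c1 silent. Aldh1a1, which makes retinoic acid, had 1.77, 2.25, 12.7 and 1.82 RPKM. For the A2B5 antigen used in the sort, 9 of 10 genes of ganglioside synthesis were expressed, where 50.7% of all genes were. They included St8sia1, which makes the b-series precursor GD3, with 10.2, 10.8, 9.77 and 10.8 RPKM. St8sia3 was silent and St8sia5 low, at 1.46 ± 0.322 RPKM.

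The cells carried the messages of a dividing population. All 33 cell cycle genes were expressed, where 50.7% of all genes were, with a median of 72.7 RPKM. Cdk4 was the highest with 587, 533.5, 653 and 570.4 RPKM, followed by the D cyclins Ccnd2 at 199.8 ± 23.1 and Ccnd1 with 151, 155, 210.1 and 158, and by the replication clamp Pcna at 169.7 ± 19.4. Mki67, a marker of cycling cells, had 60.0, 59.8, 34.5 and 60.9 RPKM. Inhibitors were present too, Cdkn1a at 128 ± 14.9 and Cdkn2a with 65.0, 58.3, 92.5 and 60.4 RPKM. Cdk6, which partners the same D cyclins as Cdk4, was at 2.15 ± 0.403 RPKM. Matrix and secreted genes were strong, with all 19 expressed. Igfbp2, which binds insulin-like growth factors, had 902 ± 94.5 RPKM, the growth factor Ptn 645 ± 50.2, Sparc 526 ± 10.5 and Bcan as above. All 20 cytoskeletal and 17 chromatin genes were expressed, and all 18 of glycolysis, again beside 50.7% of all genes.

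Replicate 3 set much of the spread. The median coefficient of variation of the expressed genes over the libraries was 8.40%, beside a median of 3.94% expected from counting error. In 84.0% of genes the coefficient was above the value expected from counting error. Counting error alone would also put part of the genes above it, and that part was not computed. The 84.0% is therefore not the share of genes with added spread. Without replicate 3 the median coefficient was 5.23%. The common biological coefficient of variation, an estimate of the spread beyond counting, was 0.121 over 4 libraries and 0.0432 without replicate 3. At least a 2-fold ratio of highest to lowest library was found for 429 expressed genes, 3.69%. Replicate 3 was the highest library in 220 of them and the lowest in 164, and without it 71 genes remained, 0.604% of those then expressed. Of the 429 genes, 105 had models under 300 bases. By the ratio of highest to lowest library the 10 most variable were Gm11968, Rps29, Snord34, Dynlt1b, Aldh1a1, Foxo6, P4ha2, Rpl34-ps1, Ankrd37 and Mir761. Rpl34-ps1, Mir761 and Snord34 had at most 11 reads in any library, and their coefficients of variation of 70.5%, 63.3% and 61.5% stand beside 64.8%, 48.6% and 38.2% from counting error. Gm11968 had 57.9, 75.9, 5.15 and 69.98 RPKM. The forkhead factor Foxo6 had 2.39, 1.92, 13.8 and 2.27 RPKM and the collagen prolyl hydroxylase P4ha2 1.70, 2.17, 12.2 and 2.31, both highest in replicate 3. At the other extreme P4hb, protein disulfide isomerase, had 345.2, 347, 345.0 and 346 RPKM, a coefficient of variation of 0.219%, and Usp38, Rnf214, Nudt5 and Cox7a2l were nearly as even.

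Replicate 3 differed from the other libraries to unlike degrees between the gene lists. Replicate 3 was the highest library for 33.9% of expressed genes and the lowest for 41.1%, and its median ratio to the mean of the other libraries was 0.983. For 28 genes known to respond to low oxygen, a list put together after these values had been seen, 27 were expressed, 25 of them highest in replicate 3, with a median ratio of 2.29. Vegfa, the vascular growth factor, had 35.4, 39.5, 174 and 56.5 RPKM. Pdk1, which restrains the entry of pyruvate into mitochondria, had 10.7, 13.8, 55.0 and 16.6 RPKM. The lactate dehydrogenase Ldha had 574, 590.3, 1249 and 684 RPKM, and the mitophagy gene Bnip3 32.4, 46.0, 157 and 54.0. In all 4 genes replicate 1 was the lowest and replicate 4 the nearest to replicate 3. Glycolysis genes, some of them on the same list, were highest in replicate 3 in 12 of 18 cases, with a median ratio of 1.43, and astrocyte genes in 16 of 23, with 1.36. Maturing oligodendrocyte genes were highest in 8 of 10 expressed cases, with 1.22. Replicate 3 was the lowest library for 71 of 80 expressed respiratory chain genes, with a median ratio of 0.807, and 44 of 79 ribosomal protein genes, with 0.851. It was also the lowest for 20 of 33 cell cycle genes, with 0.851, and 15 of 21 Hox genes, with 0.794. These are ratios of 1 library to 3 and carry no test, and what differed in the making of that library was not given in the sources used here.

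**Figure D4:**
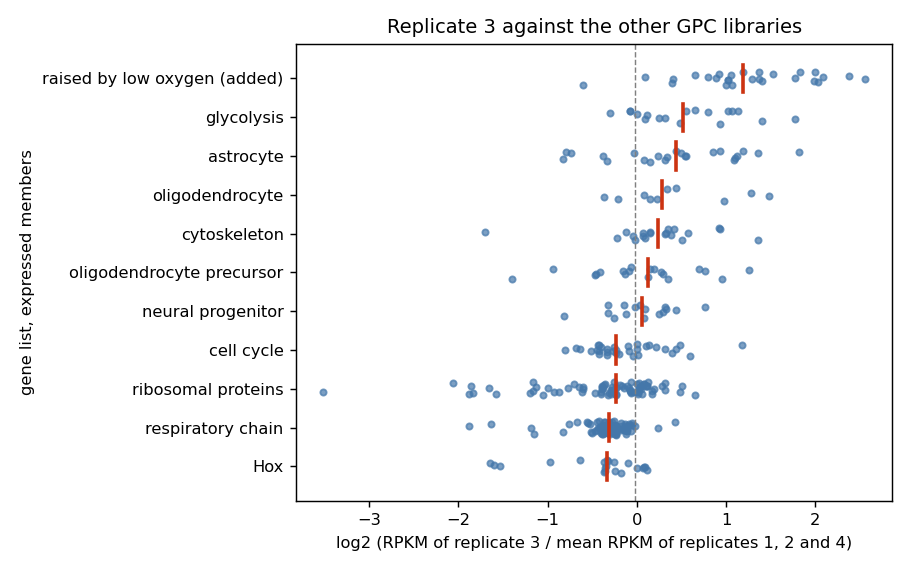
Log2 ratio of the RPKM in replicate 3 to the mean of replicates 1, 2 and 4, with 1 point per expressed gene of 11 lists and a bar at each median. Genes of low oxygen and glycolysis lie mainly right of 0, and respiratory chain genes mainly left of it.

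SOX3 and SOX9 binding in the same kind of cells gave a second readout. The authors' deposited lists assign 1367 SOX3 and 2943 SOX9 peaks to genes, each with its distance from the gene's start, and 1247 and 2735 of them matched a gene of the expression table. In all, 4.36% of genes were paired with a SOX3 peak and 8.9% with a SOX9 peak. For SOX3 the share was larger in each higher class of abundance, from 2.34% of genes under 0.1 RPKM through 5.46% at 1 to 10 RPKM to 8.99% at 100 to 1000 RPKM and 14.8% of the 27 genes at 1000 RPKM or more. For SOX9 it was 5.06% under 0.1 RPKM, between 9.85% and 11.7% in the classes from 0.1 to 1000 RPKM, and 25.9% of the 27 genes. Taken over all 839 genes at 100 RPKM or more, the SOX9 share was 10.4%. How the authors chose the gene for a peak was not given in the sources used here.

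Lists differed in this readout. Of the 19 neural progenitor genes, 11 were paired with SOX3 and 10 with SOX9, and of 25 astrocyte genes, 4 and 11. Of 84 ribosomal protein genes, which include many of the most abundant, 2 were paired with each factor, and of 39 Hox genes, 1 and 0. Expressed transcription factors were paired in 16.6% and 21.1% of cases, and silent ones in 4.44% and 11.1%. Over all genes the shares were 5.95% and 11.4% of the expressed and 2.17% and 4.78% of the silent. Among the 20 most abundant genes 3 had SOX3 and 6 had SOX9 peaks. Fabp7 had both at nearly the same place, at -40647 bp for SOX3 and -40600 bp for SOX9, in the sign of the deposited lists. Scd2 had them at 18.7 and 18.6 kb, Olig1 at -6.80 and -6.70 kb, Sox21 at 5.56 and 5.54 kb and Etv5 at 10.7 kb for each. Ckb, the most abundant gene, was paired with none, nor were Olig2, Sox8, Sox3 or the Hox genes among the 20 leading factors. Vim had a SOX9 peak at 2.32 kb and Gfap one at -1.41 kb.

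Rfx4 was a leading factor with a SOX3 peak within 250 bases of a start, at -98 bp in the authors' list, and had a further SOX3 peak at -45.0 kb and a SOX9 peak at -45.1 kb. The 250 bases before its upstream RefSeq start are shown for that reason, with matches to the SOX core motifs ACAAT and ACAAAG, read on both strands, in capitals. Which start the authors measured from was not given in the sources used here, and peak coordinates on mm9 were not carried over to this build.
Rfx4: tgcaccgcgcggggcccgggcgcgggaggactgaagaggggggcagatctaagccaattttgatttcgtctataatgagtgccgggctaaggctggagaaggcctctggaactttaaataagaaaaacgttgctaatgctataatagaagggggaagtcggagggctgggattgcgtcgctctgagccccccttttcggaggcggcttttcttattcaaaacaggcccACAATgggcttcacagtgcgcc
The stretch lies at chr10:84755798-84756047 on the plus strand and holds 15 CpG. It has 1 ACAAT, 22 bases before the start, and no ACAAAG, where 24.1% and 14.9% of all windows hold these motifs. The window of a further RefSeq start of Rfx4, chr10:84837898-84838147, holds neither motif and 2 CpG.

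CpG content at gene starts also went with abundance. In 18374 RefSeq windows of 300 bases, 250 before and 50 after the start, which matched 15028 genes, the mean number of CpG was 5.32 for genes under 0.1 RPKM, 14.1 at 0.1 to 1, 19.4 at 1 to 10, 22.8 at 10 to 100, 23.4 at 100 to 1000 and 19.5 at 1000 RPKM or more. TATAAA was found in 24.1% of the windows of genes under 0.1 RPKM, in 5.85% of those at 10 to 100 RPKM and in 14.3% of the 21 windows of the most abundant class, against 12.2% of all. CCAAT varied less, between 34.8% and 47.6% over the classes, with 38.3% of all windows. Several windows can belong to 1 gene, and genes are not independent replicates, so these shares are descriptions.

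**Figure D5:**
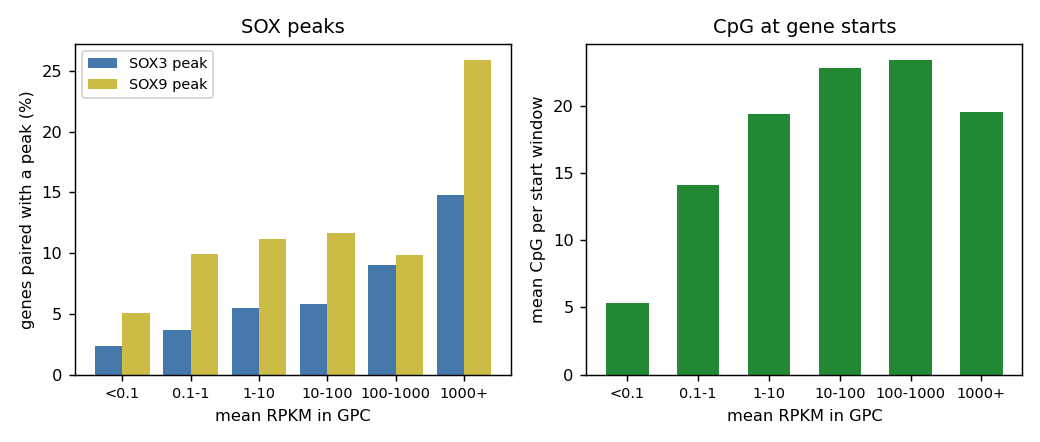
Share of genes paired by the authors with a SOX3 or SOX9 peak (left, percent) and mean number of CpG per start window (right), by class of mean RPKM in GPC. Bars are lowest in the class under 0.1 RPKM, and the most abundant class holds 27 genes and 21 windows.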

How the data were processed

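RNA was measured in 4 GPC libraries. Read counts per gene were deposited by the authors as whole numbers, and the RPKM of each gene was calculated by the authors, per the file headers. The signed distances of SOX3 and SOX9 peaks to gene starts come from the authors' deposited lists, each made over all samples of a factor. Reads were placed on mm9, per the submitters' processing notes. Aligner, counting tool and strand setting: not given in the sources used here. Overlapping or antisense genes and near-identical copies cannot be told apart. Model length was computed as count over RPKM and library size. Levels are RPKM as deposited, and no comparison between groups was tested. The biological coefficient of variation came from edgeR 4.0.16 in R 4.3.3 with TMM scaling, tested on simulated data. Other steps used Python 3.11.15 with pandas 2.3.3 and numpy 2.4.6. Symbols of 26 gene lists were matched directly or, for 8, by RefSeq synonyms. The members and lists were chosen with earlier results of these data known. Genes were named by rule: the 20 highest by RPKM and 10 by reads, the 20 highest transcription factors, the 4 highest and the silent members of each list or the list in full, the 10 most and 5 least variable genes, and the marker genes. Alternatives left out each library and changed thresholds, scaling and gene models. Table lines that repeat a symbol were kept as their own gene. Some genes that the rule names are not reported here, in the text or the figures. Dcun1d2 is listed at 0 RPKM in all libraries despite 453 to 740.0 reads, and Ube2h and Eda at 0 in replicate 3.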

Additional observations from a re-analysis of the deposited data

Results flagged for a closer look

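Values were looked at for a library that stands far from the others of the group, by the gap of the highest or lowest of the 4 libraries to its nearest neighbour over the whole range (Dixon's criterion at the 95% level). The values checked were 73, namely 67 genes printed library by library and properties of the libraries, and chance marks about 1 in 20. Of these, 27 stood out, and in each it was replicate 3 that did, as the highest library in 19 and the lowest in 8. Some of the genes had been printed for their spread, or as low-oxygen genes listed after the values were seen. The 27 can therefore not be set against 1 in 20. Over all 11639 expressed genes the criterion marked 1302, or 11.2%, of which replicate 3 accounted for 1045, or 80.3%. Replicate 3 had the most reads in genes, 22439837. By the criterion its level stood above the others for Aldh1a1 (12.7 RPKM), Aldoc (684), Apoe (104), Ccnd1 (210.1), Egr1 (160.3), Foxo6 (13.8), Gfap (15.4), Irx3 (29.2), Ldha (1249), Mbp (15.9), Nfia (15.8), P4ha2 (12.2), Pdk1 (55.0), Scd2 (1792), Sox3 (121.9), Sox8 (136), Sox9 (62.7) and Vegfa (174). It stood below the others for Aldh1l1 (17.0 RPKM), Hoxb6 (76.7), Hoxb8 (91.0), Hoxb9 (17.9), Mest (1437), Mki67 (34.5), Olig2 (491) and Pdgfra (16.2). The criterion weighs the gap against the range, so a small difference is marked where the other libraries lie close together. Replicate 3 was at 6.55 times the mean of the others for Aldh1a1, but at 1.18 for Sox9 and 0.896 for Olig2.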

How the results depend on the processing

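The 100 most abundant genes held 13.7% of the reads and, without gene models under 300 bases, 19.8% of the RPKM, against 20.8%. Ribosomal proteins fell from 5.85% of the RPKM to 1.23% of the reads and 2.97% without short models. By reads, 1376 genes made up 50% in place of 904. Leaving out each library in turn gave a median coefficient of variation of 5.23% to 9.07% and 71 to 388 genes that varied 2-fold or more, the lowest of each without replicate 3. The count of expressed genes ran from 10825 to 12417, of expressed factors from 302 to 373, and of expressed Hox genes from 20 to 23. Leaving out 1 of 4 libraries cannot move a mean past its SD, so it says nothing on the stability of levels, and Sox3 went from 82.4 to 69.2 RPKM without replicate 3. The alternatives without short models for the counts of expressed and of 2-fold varying genes were chosen after seeing the data. No paired analysis was possible because 1 group was described and no test was made. Depth limits the silent calls: 3 reads on a 2 kb gene are 0.116 RPKM in replicate 1, above the threshold of 0.1 RPKM.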
